A study of Solanum lycopersicum x Solanum pennellii and Solanum lycopersicum and Solanum pennellii with 31 samples.

Results

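The sRNA populations of 2 seedlings of tomato (Solanum lycopersicum) cultivar M82 were compared locus by locus, to describe how far plants of a single genotype differ before any comparison with another line. A locus was a stretch of the genome on which sRNA reads cluster, and the loci described are those with at least 20 reads over both M82 libraries. There were 47563 such loci among the 219578 in the seedling table, or 21.7%. They held 87.6% of the reads of M82 replicate 1 and 88.8% of those of M82 replicate 2. M82 replicate 1 and M82 replicate 2 are each 1 library from 1 seedling at 2 weeks of age. The study took these libraries and those of the lines from earlier work. One of its captions names whole seedlings, and its methods name the aerial part for the Micro-Tom and S. pimpinellifolium seedlings. A growth room is stated in its methods for its plants in general. The other seedling libraries of the table are 1 library each of IL1-1, IL2-5 and IL8-3, from the same tissue at the same age. These introgression lines are M82 plants in which a segment has been replaced by that of the wild relative S. pennellii, on chromosome 1 in IL1-1, chromosome 2 in IL2-5 and chromosome 8 in IL8-3. The study's methods state that the libraries of the lines carried wrong names in an earlier deposit and that the names used here are the corrected ones.

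Plant sRNAs are cut from longer double-stranded or hairpin precursors by Dicer-like enzymes. microRNAs and other short classes act mostly on transcripts, whereas heterochromatic siRNAs, made with the help of RNA polymerase IV from transposons and other repeats, guide DNA methylation back to the sequences they come from. In tomato the gene-rich chromatin lies towards the chromosome ends, and most of the middle of each chromosome is heterochromatin rich in repeats. The read count table holds no read sizes, so a locus could not be placed in any of these classes, and the genes and repeats at each locus were not analysed here.

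M82 replicate 1 held 4860695 reads on all loci and M82 replicate 2 held 2843012, against 4680913 to 5688499 in the lines, so that replicate 2 was the shallowest of the 5 libraries. Reads were therefore scaled to the library total over all loci (CPM, the usual unit scaled to library size), and each locus was given a log2 ratio of replicate 1 over replicate 2 after 0.25 CPM was added to both. With 1 library on each side no test was possible, and every difference below is between these libraries. The quartile range, from the 25th to the 75th percentile of the log2 ratio, served as the measure of spread. It is set beside the range that counting error alone would give. Intervals of ratios and floors cover counting error only, since amplified reads without molecular identifiers are not independent molecules. Intervals of a quartile range instead reflect the number of loci. They treat the loci as independent draws, although all loci share the same libraries, so their stated level is nominal.

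Nearly every locus with at least 20 reads over both libraries was found in both seedlings, but its level often was not the same. That minimum itself favours loci with reads in both. Of all 219578 loci of the seedling table, replicate 1 held reads at 194323 and replicate 2 at 168365. Both libraries held reads at 47410 of the 47563 loci (99.7%), and Spearman's rho of the counts across these loci, which share the library totals and are not independent, was 0.67. The log2 ratio had a median of 0.22, with quartiles of -0.35 and 0.82, and ran from -1.32 at the 5th percentile to 1.89 at the 95th. Its quartile range of 1.17 was wider than the 0.50 that counting error gives, and 28.8% of the loci differed by at least 2-fold. At 2049 loci (4.31%) the CPM was at least 4-fold higher in replicate 1, and at 656 loci (1.38%) it was at least 4-fold higher in replicate 2.

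The excess on the side of replicate 1 depended on the scaling. With TMM factors, which equalise the bulk of the loci, the median log2 ratio moved down by 0.24 and became -0.021. The counts past 4-fold were then 1452 higher in replicate 1 and 1062 higher in replicate 2, so that replicate 1 was the higher library at 57.8% of them and not at 75.7%. The minimum of 20 reads is moreover set on raw reads summed over both libraries. A locus read mainly in replicate 1, the deeper library, thus passes it at a lower CPM than one read mainly in replicate 2. The part of this in the excess was not tested. The 100 loci with the most reads took 20.1% of the reads of replicate 1, 23.8% of those of replicate 2 and 23.4% to 31.4% of those of the lines. The direction of the median is therefore not a result, whereas the quartile range was 1.17 with column totals and 1.18 with TMM factors.

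The spread was not confined to loci with few reads. Among loci with 20 to under 50 reads the quartile range was 1.23, of which counting error accounts for a range of 0.71. It was 1.08 at 100 to under 200 reads and 1.09 at 200 to under 500, while the range from counting error narrowed to 0.23. At 500 to under 1000 reads it was 1.14, at 1000 to under 5000 reads 1.26, and at 5000 reads and over 1.30, where counting error gives only 0.04. The observed spread thus stayed near 1.1 to 1.3 over the whole range of abundance. The last class held 91 loci, and the 95% interval of its quartile range, 0.90 to 1.97, takes in the values of all the others.

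**Figure D1:**
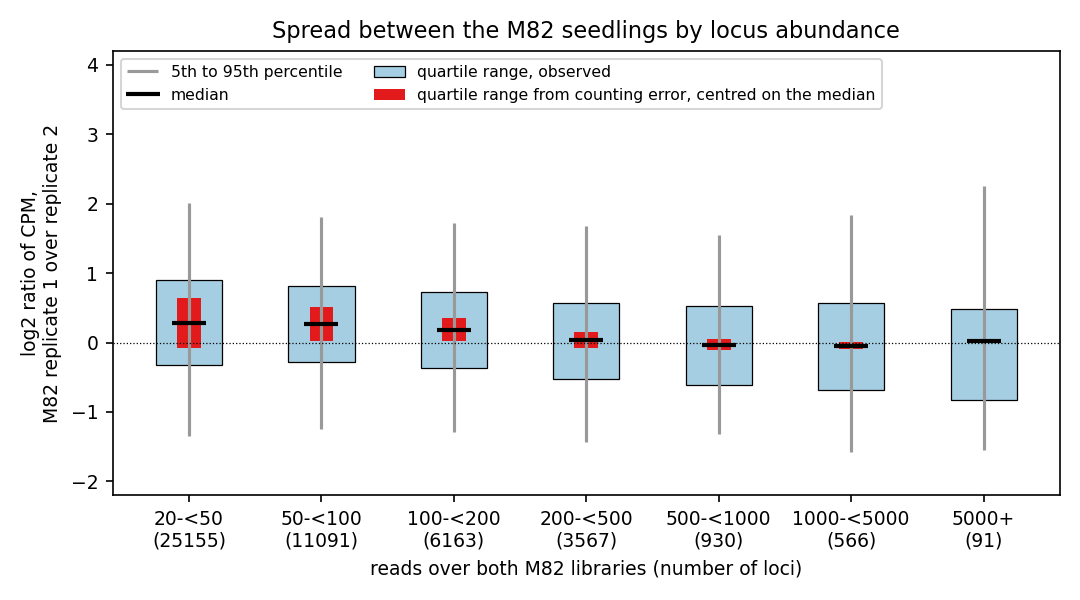
Log2 ratio of CPM in M82 replicate 1 over M82 replicate 2 (vertical axis) for loci grouped by their reads over both libraries (horizontal axis, with the number of loci). Blue boxes run from the 25th to the 75th percentile, grey lines from the 5th to the 95th, black bars are medians and red bars show the quartile range from counting error alone, which shrinks from 0.71 to 0.04 while the boxes keep a height of 1.08 to 1.30.

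Loci with few reads and loci with many differed in their centre as well. The median log2 ratio was 0.28 at 20 to under 50 reads and 0.27 at 50 to under 100. It was 0.04 at 200 to under 500 reads, -0.03 at 500 to under 1000 and -0.05 at 1000 to under 5000. Relative to the rare loci, the abundant loci therefore lay towards replicate 2. With TMM factors the order was kept, with medians of 0.05 in the lowest class and -0.29 at 1000 to under 5000 reads.

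The shortest loci varied most between the seedlings. The quartile range was 1.77 at the 1042 loci of 40 bp or less, 1.46 at 41 to 100 bp, 1.30 at over 100 and up to 200 bp, 1.08 at over 200 and up to 500 bp and 0.96 at over 500 and under 1000 bp. It was 0.84 at the 316 loci of 1000 bp or more, with a 95% interval of 0.57 to 1.09 against 1.53 to 2.04 for the shortest loci. Of the shortest loci, 10.4% were at least 4-fold higher in replicate 1 and 9.50% in replicate 2. Of the longest, 2 loci (0.633%) were at least 4-fold higher in replicate 1 and 0 in replicate 2.

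Short loci also held fewer reads, with a median of 32 at 40 bp or less and of 261 at 1000 bp or more, so length was examined within classes of abundance. At 20 to under 50 reads the quartile range was 1.87 for loci of 40 bp or less (95% interval 1.56 to 2.17). It was 1.02 (0.95 to 1.12) for those of over 500 and under 1000 bp. For those of 1000 bp or more it was 0.82, from only 32 loci, and its 95% interval took in 1.87. Counting error gave 0.72 for the shortest loci and 0.66 for the longest. At 200 to under 500 reads the values for the shortest and longest loci were 2.44 and 0.78, from 34 and 73 loci. Their 95% intervals, 0.15 to 6.68 and 0.33 to 1.45, overlapped. At 50 to under 100 and at 100 to under 200 reads, the range narrowed up to over 500 and under 1000 bp. There the loci of 1000 bp or more, 46 and 49 in number, were wider than those of over 500 and under 1000 bp. At 1000 to under 5000 reads the order did not hold for the shorter loci, since the range was 0.98 at 41 to 100 bp (33 loci), 1.38 at over 100 and up to 200 bp and 1.35 at over 200 and up to 500 bp. At 5000 reads and over, the 29 loci of 1000 bp or more had a quartile range of 0.45 (95% interval 0.07 to 1.29), against 1.30 for all loci of that class.

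**Figure D2:**
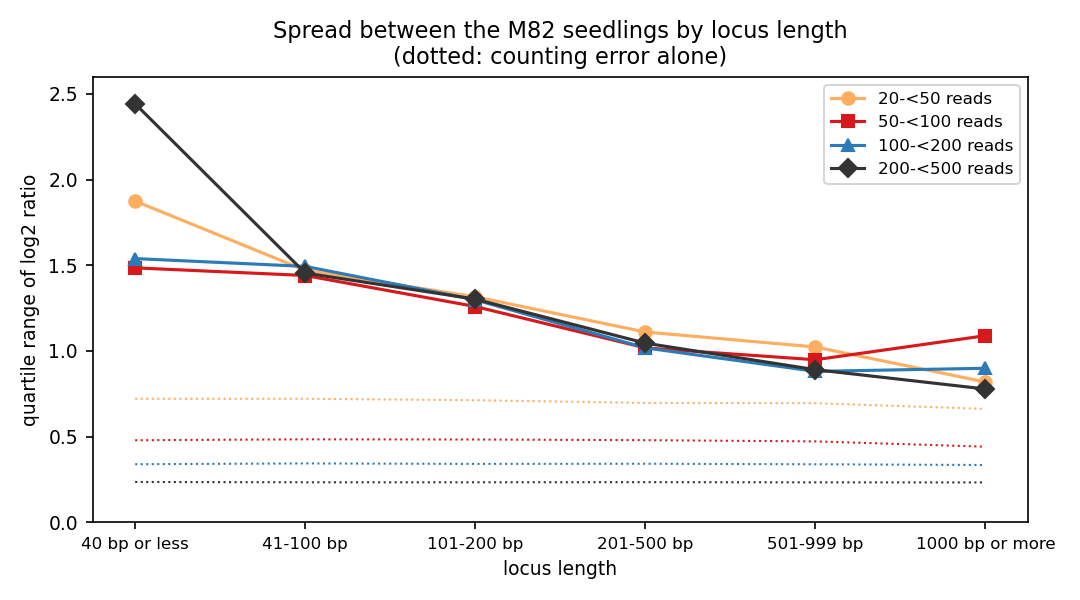
Quartile range of the log2 ratio of M82 replicate 1 over M82 replicate 2 (vertical axis) by locus length (horizontal axis), with 1 line for each class of reads over both libraries. Dotted lines show counting error alone, which hardly depends on length, whereas the observed range at 20 to under 50 reads falls to 0.82 at 1000 bp or more, against 1.87 at 40 bp or less.

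The ratio also followed the position on the chromosome. When each of the 12 chromosomes was cut into 10 equal bins, the median log2 ratio was 0.23 in bin 1, -0.03 in bins 3 and 4 and 0.33 in bin 10. The share of loci at least 4-fold higher in replicate 2 was 1.02% in bin 1, 3.88% in bin 6 and 0.773% in bin 10. The share at least 4-fold higher in replicate 1 was flatter, between 3.46% and 4.93%. Between the M82 seedlings, loci that stood out in replicate 2 were thus more frequent in the middle of the chromosomes. The pairs of lines, given below, also had larger shares past 4-fold in the middle.

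The same comparison was made for loci more than 10 Mb from both ends and for loci within 10 Mb of an end. The median log2 ratio was 0.14 at the 15968 loci of the middle and 0.28 at the 30939 loci near the ends, and it was lower in the middle on 12 of 12 chromosomes, with a difference between -0.25 on chromosome 5 and -0.07 on chromosome 1. Of the middle loci 2.13% were at least 4-fold higher in replicate 2, against 0.937% near the ends, and this share was larger in the middle on 12 of 12 chromosomes. For loci at least 4-fold higher in replicate 1 the shares were 3.95% in the middle and 4.50% near the ends, and the middle had the larger share on 3 of 12 chromosomes. With TMM factors the shares higher in replicate 2 were 3.20% and 1.66%, and those higher in replicate 1 were 2.91% and 3.14%. The quartile ranges, 1.20 and 1.16, were close to each other.

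**Figure D3:**
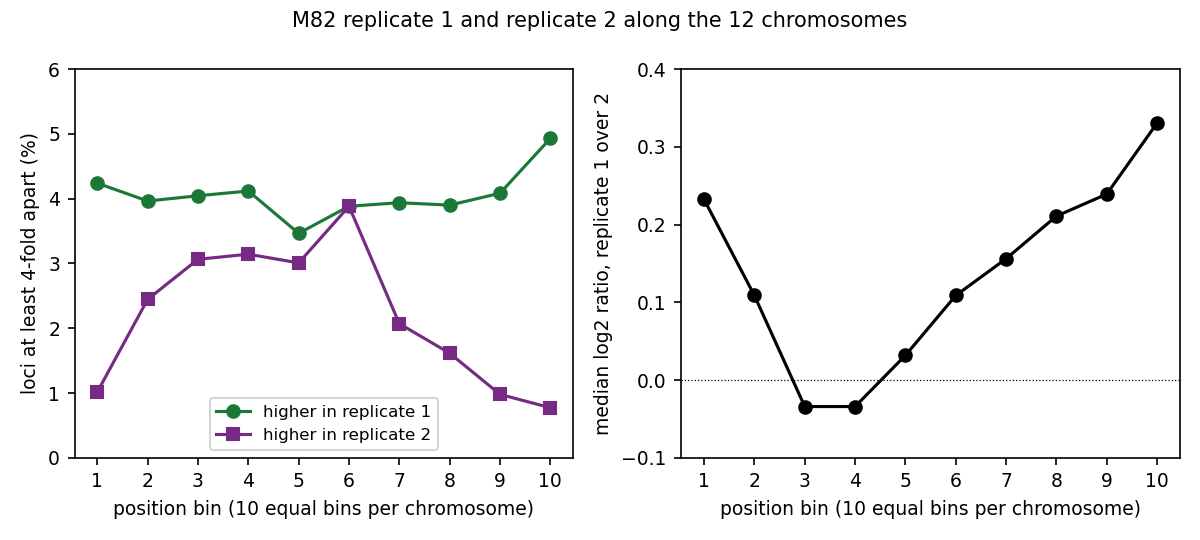
Position along the 12 chromosomes in 10 equal bins (horizontal axes), with the share of loci at least 4-fold higher in M82 replicate 1 (green) or in M82 replicate 2 (purple) in the left panel and the median log2 ratio in the right panel. The purple share is 3.88% in bin 6, against 1.02% in bin 1 and 0.773% in bin 10, and the median is lowest, at -0.03, in bins 3 and 4.

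Length and abundance differed little between these places, with a median length of 222 bp in the middle against 237 bp near the ends and a median of 44 against 48 reads. Within every length class under 1000 bp the middle kept the lower median, for example -0.38 against -0.05 at 40 bp or less and 0.21 against 0.30 at over 200 and up to 500 bp. At 1000 bp or more the order was the other way round, with 0.31 in the middle (121 loci) and 0.21 near the ends (186 loci). By abundance the middle had the lower median in each class under 500 reads, for example 0.17 against 0.35 at 20 to under 50 reads. It did not at 500 to under 1000 reads, with 0.05 in the middle and -0.06 near the ends, nor at 1000 to under 5000 reads, where the medians were -0.046 and -0.055. In this last class the share at least 4-fold higher in replicate 2 was also the smaller in the middle, at 1.54% (195 loci) against 3.13% near the ends (351 loci). When each M82 library was set against each line outside the introgressed segments, the middle minus the ends gave -0.03 to -0.08 for replicate 1 over the lines and 0.06 to 0.10 for replicate 2 over the lines. These comparisons share their libraries, and the values for the pairs of lines ran from -0.04 to 0.06. The sign was negative in all 3 comparisons of replicate 1 with a line and positive in all 3 of replicate 2, but the smallest of these values lie within the range of the lines among themselves. In every pair of lines, the share at least 4-fold apart was larger in the middle in either direction. It was 2.28% against 1.26% near the ends for loci higher in IL1-1 than in IL2-5. For loci higher in IL8-3 than in IL2-5 it was 1.07% against 0.774%. A larger share in the middle was thus not particular to replicate 2.

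No window with enough loci separated the seedlings by its median. Of 415 windows of 1 Mb with at least 20 loci, none had a median past 2-fold. Windows with fewer loci were left out, so parts of the chromosomes poor in loci are not covered. The lowest median was -0.46 (26 loci, chromosome 10, 8 to 9 Mb) and the highest was 0.68 (51 loci, chromosome 11, 56 to 57 Mb), around a median window of 0.22. Over all loci the ratios of neighbours were only weakly related. Pearson's r between the log2 ratios of adjacent loci was 0.044 for 11907 pairs under 1 kb apart and 0.045 for 10642 pairs between 10 and 100 kb apart. Where a locus was at least 4-fold higher in replicate 1, however, its neighbour under 1 kb away was so too in 8.10% of cases, against 4.14% at 1 to 10 kb and 4.31% of all loci. For loci at least 4-fold higher in replicate 2, the neighbour was so too in 4.17% of cases under 1 kb. The share was 3.13% at 1 to 10 kb, 4.57% at 10 to 100 kb and 4.71% beyond, against 1.38% of all loci. The first locus of a pair was such a locus in 96 of 11907 pairs under 1 kb and in 85 of 1594 beyond 100 kb. Such loci were thus more frequent in distant pairs, for which the share of all loci is not a matched background.

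A few loci were found in only one of the seedlings. At 44 loci (0.0925% of the 47563) replicate 1 held at least 30 reads and replicate 2 held 0, and at 11 loci (0.0231%) replicate 2 held at least 30 reads and replicate 1 held 0. With 3 reads put in place of 0, the loci of the first kind were 5.85- to 46.2-fold higher in replicate 1. Those of the second kind were 17.1- to 120-fold higher in replicate 2. These floors hold for a single locus and do not allow for the choice of loci by their 0. Since 30 reads stand for 6.17 CPM in replicate 1 and 10.6 CPM in replicate 2, the same number of reads is a lower threshold in replicate 1. At 10.6 CPM in either library the counts were 15 and 11. At the threshold itself, 2 and 1 loci held exactly 30 reads and 4 and 1 loci held 29.

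These loci were short. Their median length was 73 bp where replicate 2 held 0 and 61 bp where replicate 1 held 0, against 260 and 270 bp at the loci with reads in both seedlings and a count in the same range in the library compared. Of the 44 loci 54.5% were at most 100 bp long, against 10.2% of 22223 such loci, and of the 11 loci 72.7% were, against 10.8% of 11600. Within 10 Mb of a chromosome end lay 24 of the 44 (54.5%, against 68.5%) and 4 of the 10 that are placed on a chromosome (40%, against 67.1%). Chromosome 12 held 9 of the 44, with 3433 of the 47563 loci, and is named as the highest of the chromosomes. Chromosomes 7 and 10 held 6 of the 44 each, and chromosome 12 held 0 of the 11. The closest pair of loci at 0 in replicate 2 lay 113473 bp apart. The nearest locus with at least 20 reads was at least 4-fold apart in the same direction for 6 of the 44, against 4.31% of all loci, and for 1 of the 11, against 1.38% of all loci. The share of all loci is not a matched background here. Neighbours of loci at least 4-fold higher in replicate 1 shared the direction in 8.10% of cases under 1 kb and in 4.14% at 1 to 10 kb.

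The state of the lines differed between the kinds. A locus was called present in a line when it held at least 10 reads there. Of the 44 loci at 0 in replicate 2, 20 were present in all 3 lines, 9 in 2 lines, 7 in 1 line and 8 in none. Of the 11 loci at 0 in replicate 1, 0 were present in 3 or 2 lines, 2 in 1 line and 9 in none. The loci with reads in both seedlings were present in all 3 lines in 91.7% and 94.0% of cases. At the common threshold of 10.6 CPM, 8 of the 15 loci at 0 in replicate 2 were present in all 3 lines and 3 in none, against 0 and 9 of the 11 loci at 0 in replicate 1. Where replicate 2 held 0, the lines thus often shared the reads of replicate 1, and where replicate 1 held 0, the lines held few reads as well.

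**Figure D4:**
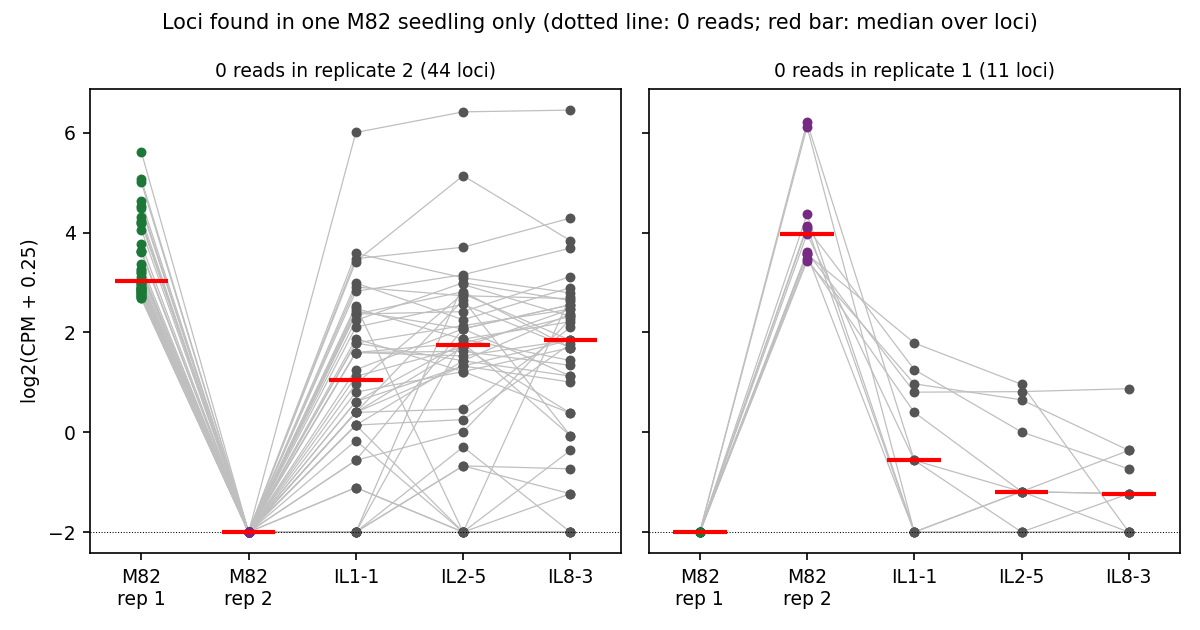
Level of each locus with 0 reads in one M82 library and at least 30 in the other, as log2(CPM + 0.25), in M82 replicate 1, M82 replicate 2 and the 3 lines, with 1 grey line per locus and red bars at the median over loci. In the left panel (44 loci at 0 in replicate 2) the lines hold a median of 8.5 to 19 reads, and in the right panel (11 loci at 0 in replicate 1) a median of 1 to 2 reads.

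The locus with the most reads at 0 in replicate 2 was Cluster_125682, 21 bp long (chromosome 7, 48869473 to 48869493 on build SL2.50, as are all positions given). It held 237 reads in replicate 1 and 0 in replicate 2, and 8 in IL1-1, 35 in IL2-5 and 19 in IL8-3. Its length is that of a single sRNA. The lines lay between the seedlings, at 1.71 to 6.60 CPM against 48.8 CPM in replicate 1. Cluster_158258, 32 bp long (chromosome 9, 8799724 to 8799755), held 162 reads in replicate 1 and 0 in replicate 2, and 3 in IL1-1 and 0 in IL2-5 and IL8-3. Cluster_176847, 260 bp long (chromosome 10, 27676033 to 27676292), held 95 reads in replicate 1 and 0 in replicate 2, and 0 in IL1-1, 3 in IL2-5 and 0 in IL8-3. At both, replicate 1 stood nearly alone among the 5 libraries.

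At other loci the lines held a larger part of the level of replicate 1, or more than it. Cluster_218110, 45 bp long (chromosome 12, 64897934 to 64897978), held 90 reads in replicate 1 and 0 in replicate 2, and 300 in IL1-1, 453 in IL2-5 and 498 in IL8-3. Cluster_10938, 24 bp long (chromosome 1, 31720663 to 31720686, within the segment that IL1-1 carries from S. pennellii), held 155 reads in replicate 1 and 0 in replicate 2, and 49 in IL1-1, 186 in IL2-5 and 80 in IL8-3. At both loci every line held at least 25% of the CPM of replicate 1, as was the case at 19 of the 44 loci. At Cluster_218110 the lines stood at 64.1 to 87.5 CPM, above replicate 1 at 18.5 CPM. At Cluster_10938 replicate 1 stood at 31.9 CPM, with IL1-1 and IL8-3 below it at 10.5 and 14.1 CPM and IL2-5 at 35.1 CPM.

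The remaining loci of the 8 with the most reads were intermediate. Cluster_147849 (chromosome 8, 57646642 to 57646715) held 120 reads in replicate 1 and 0 in replicate 2, and 5 in IL1-1, 16 in IL2-5 and 6 in IL8-3. Cluster_83497 (chromosome 4, 64470775 to 64470817) held 112 reads in replicate 1 and 0 in replicate 2, and 6 in IL1-1, 17 in IL2-5 and 4 in IL8-3. Cluster_186840 (chromosome 10, 64458348 to 64458552) held 108 reads in replicate 1 and 0 in replicate 2, and 13 in IL1-1, 17 in IL2-5 and 27 in IL8-3. At all of these the lines had reads but under 25% of the CPM of replicate 1. Cluster_83497 had a neighbour 85 bp away, Cluster_83498, that differed in the same direction, with 292 reads in replicate 1 and 8 in replicate 2.

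In the other direction, Cluster_50323, 107 bp long (chromosome 3, 5869710 to 5869816), held 0 reads in replicate 1 and 210 in replicate 2, and 2 in IL1-1, 1 in IL2-5 and 1 in IL8-3. Cluster_1265, 156 bp long (on sequence not placed on a chromosome, 12098664 to 12098819), held 0 reads in replicate 1 and 197 in replicate 2, and 0 in every line. By the same floor they were 120- and 112-fold higher in replicate 2, and the reads of each came almost wholly from 1 seedling among the 5. The next locus held 58 reads, so that these loci stood apart from the other 9.

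Of those 9, Cluster_98295 (chromosome 5, 62796880 to 62796940) held 0 reads in replicate 1 and 58 in replicate 2, and 0 in IL1-1, 1 in IL2-5 and 0 in IL8-3. Cluster_115503, 26 bp long (chromosome 6, 46113615 to 46113640), held 0 reads in replicate 1 and 49 in replicate 2, and 0, 0 and 1 in the lines, named in the same order. Cluster_125557 (chromosome 7, 47684898 to 47684928) held 0 reads in replicate 1 and 44 in replicate 2, and 2, 0 and 0 in the lines. At these loci too the reads belonged to replicate 2. Cluster_75106 and Cluster_37563 each held 0 reads in replicate 1 and 33 in replicate 2, but differed in the lines, with 0, 1 and 1 reads at Cluster_75106 and 15, 9 and 0 at Cluster_37563. Cluster_141943 held 0 and 48 reads in the seedlings and 10, 4 and 2 in the lines, and Cluster_52592 held 0 and 34 reads and 7, 8 and 9. Cluster_37563 in IL1-1 and Cluster_141943 in IL1-1 were the instances of a line with at least 10 reads, and no line reached the level of replicate 2 at any of the 11 loci.

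Large differences also occurred at abundant loci with reads in both seedlings. Of 1587 loci with at least 500 reads, 73.9% lay within 2-fold, 60 were at least 4-fold higher in replicate 1 and 21 at least 4-fold higher in replicate 2. Among all loci these shares were 4.31% and 1.38%. At 500 to under 1000 reads they were 3.12% and 0.645%, and at 1000 to under 5000 reads 4.06% and 2.47%. At 5000 reads and over, 8 and 1 of 91 loci were past 4-fold. Such differences were thus not clearly more frequent at abundant loci than among all loci, except in that small last class for replicate 1. Cluster_141489, 144 bp long (chromosome 8, 29191231 to 29191374), held 3614 reads in replicate 1 and 12 in replicate 2, and 27 in IL1-1, 43 in IL2-5 and 40 in IL8-3. It was 176-fold higher in replicate 1 (95% exact interval 100.7 to 341), and the lines lay near replicate 2. A single seedling thus carried 744 CPM of a locus that stood at 4.22 to 8.11 CPM in the other 4 libraries.

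The same held, less fully, for other loci. Cluster_17488, 33 bp long (chromosome 1, 78821371 to 78821403, within the segment of IL1-1), held 1667 reads in replicate 1 and 11 in replicate 2, and 22 in IL1-1, 63 in IL2-5 and 4 in IL8-3, an 88.6-fold difference between the seedlings (49.4 to 178). Cluster_160987 (chromosome 9, 44707400 to 44707567) held 4230 reads in replicate 1 and 69 in replicate 2, and 126, 626 and 87 in the lines, in the same order. Cluster_57478 (chromosome 3, 53687424 to 53687542) held 1359 reads in replicate 1 and 23 in replicate 2, and 75, 546 and 79 in the lines. At both of these loci IL2-5 was the highest of the lines and replicate 1 was higher still. Cluster_124904, 24 bp long (chromosome 7, 39599646 to 39599669), went the other way, since it held 623 reads in replicate 1 and 15 in replicate 2 but 353, 202 and 510 in the lines.

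Abundant loci that were higher in replicate 2 differed less. Cluster_177070 (chromosome 10, 30256114 to 30256363) held 126 reads in replicate 1 and 1679 in replicate 2, and 636 in IL1-1, 287 in IL2-5 and 164 in IL8-3, and was 22.8-fold higher in replicate 2 (19.0 to 27.5). The next 4 were 6.31- to 6.95-fold higher in replicate 2. Cluster_22402 (chromosome 1, 87406175 to 87406366) held 1517 reads in replicate 1 and 6084 in replicate 2, and 9063 in IL1-1, 7671 in IL2-5 and 8527 in IL8-3. By CPM it stood at 312 in replicate 1 and 2140 in replicate 2, and at 1446 to 1936 in the lines. Cluster_25219 held 391 reads in replicate 1 and 1481 in replicate 2, and 2076, 1622 and 1750 in the lines. At these loci, and at Cluster_185393 with 834 reads in replicate 1 and 3080 in replicate 2, the lines lay between the seedlings by CPM and closer to replicate 2 on the log scale. The lines were otherwise placed at Cluster_177070, where IL2-5 and IL8-3 stood at 54.1 and 28.8 CPM, nearer on the log scale to replicate 1 (25.9 CPM) than to replicate 2 (591 CPM), and IL1-1 at 136 CPM was nearer to replicate 2. They were also otherwise placed at Cluster_183737, with 461 reads in replicate 1 and 1875 in replicate 2, where the lines lay at 87.5 to 138 CPM, against 94.8 CPM in replicate 1 and 660 CPM in replicate 2.

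The loci with the most reads of all differed less than those. Cluster_113389, 108 bp long (chromosome 6, 42851773 to 42851880), took 84699 reads in replicate 1 and 122264 in replicate 2, which is 2.47-fold higher in replicate 2 by CPM (2.45 to 2.49), and 219329 in IL1-1, 226520 in IL2-5 and 235424 in IL8-3. It made up 1.74% of the reads of replicate 1, 4.30% of those of replicate 2 and 4.14% to 4.69% of those of the lines. Replicate 1 was therefore the library that stood apart at this locus. Cluster_289, 1900 bp long and on unplaced sequence, was 1.39-fold higher in replicate 1 with 70948 against 29863 reads. Cluster_54453, 2008 bp long (chromosome 3), was 1.26-fold higher in replicate 2 with 40470 reads in replicate 1 and 29750 in replicate 2.

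At loci at least 4-fold apart, the lines were more often near replicate 1. Outside the introgressed segments, the median CPM of the lines was nearer to replicate 1 on the log2 scale at 68.5% of the 1782 loci higher in replicate 1, and at 68.3% of the 586 loci higher in replicate 2. With at least 200 reads over both M82 libraries these shares were 54.6% of 152 loci and 61.7% of 60 loci. Replicate 2 is the shallower library, and the part of its depth in these shares was not tested.

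The 10 pairs of seedling libraries were then set side by side outside the introgressed segments, at loci with at least 200 reads over the pair, where counting error gives a quartile range of 0.18 to 0.19. The M82 pair had a quartile range of 1.13. M82 replicate 1 with each line gave 0.94 to 0.98, M82 replicate 2 with each line gave 1.13 to 1.31, and the pairs of lines gave 0.49 to 0.68. The M82 seedlings thus differed from each other by more than any pair of lines did, and more than replicate 1 differed from any line. Each library enters 4 of the pairs, so these values are not independent, and batches of library preparation are not given in the sources used here. Plants and preparation cannot be told apart.

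**Figure D5:**
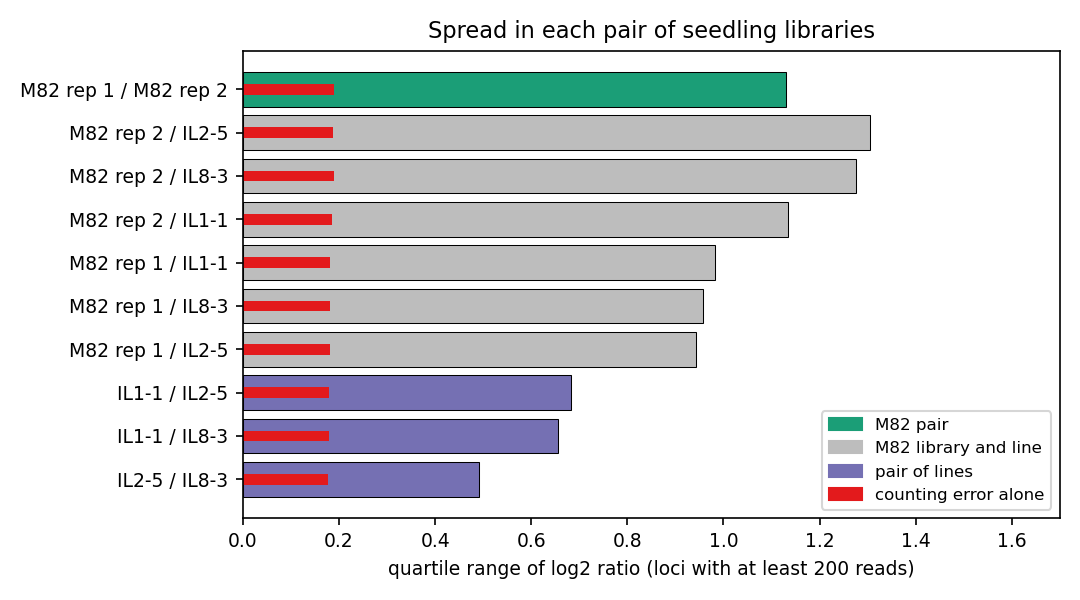
Quartile range of the log2 ratio of CPM (horizontal axis) for each of the 10 pairs of seedling libraries, at loci with at least 200 reads over the pair and outside the introgressed segments. The M82 pair (green) reaches 1.13, pairs of an M82 library and a line (grey) 0.94 to 1.31 and pairs of lines (violet) 0.49 to 0.68, with red bars for counting error alone.

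The common dispersion of edgeR, fitted to each pair as if its libraries were replicates, gave a similar order. Expressed as a biological coefficient of variation, it was 42.3% for the M82 pair, 36.6% to 39.6% for replicate 1 with the lines, 42.4% to 46.5% for replicate 2 with the lines and 26.8% to 33.5% for the pairs of lines. The rule of 0 reads against at least 30 found 41 and 11 loci in the M82 pair outside the segments. It found 19 to 43 loci with replicate 1 present and a line at 0, and 31 to 58 with a line present and replicate 1 at 0. For replicate 2 it found 14 to 31 loci with replicate 2 present and a line at 0, and 77 to 96 with a line present and replicate 2 at 0. In the pairs of lines it found 18 to 59 loci in either direction. The 41 loci of the M82 pair thus lay within the range of the pairs of lines and the 11 below it and below the 14 to 31 of replicate 2 with the lines, with libraries of unequal depth in every pair.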

How the data were processed

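The authors mapped the sRNA libraries of the seedlings to the Heinz genome SL2.50, clustered the reads into loci with ShortStack at default settings over the seedling libraries, and deposited the count of reads per locus without normalization. The submitters' processing notes also name Trim Galore, Bowtie 1.1.1 and DESeq2 1.8.1. Which loci share reads with copies elsewhere was not examined here.

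All 5 count columns were used. CPM were taken from column totals, with 0.25 CPM added before the log2 ratio. Loci with at least 20 counts over the M82 libraries were kept, which leaves out loci of low counts in both. The range from counting error is that of binomial sampling at a common ratio. Ratios have 95% exact intervals from scipy 1.17.1. Scaling factors and dispersions came from edgeR 4.0.16 in R 4.3.3. The scripts were tested on simulated data. Introgressed segments were read from the study's methods as chromosome 1 up to 86 Mb, chromosome 2 from 44 to 54 Mb and chromosome 8 from 61 Mb.

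Loci were named by rule: the 8 with the most counts at 0 in either M82 library (with ties), the 5 in each direction with the largest ratio among loci of at least 500 counts, and the 3 with the most counts. The loci, lists and rules were chosen with earlier results of these data known. Alternatives were other scalings, pseudocounts, count minimums and thresholds, unplaced sequence left out, and each line left out. The tables of H06 reads and the Micro-Tom and S. pimpinellifolium seedlings were not analysed here.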

Additional observations from a re-analysis of the deposited data

How the results depend on the processing

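The quartile range of the log2 ratio, 1.17, was 1.18 with TMM factors, 1.18 with totals that leave out the 100 most abundant loci, 1.21 and 1.03 with pseudocounts of 0.1 and 1 CPM, and 1.29, 1.12 and 1.496 with minimums of 10 counts, 50 counts and 1 count. The median log2 ratio of 0.22 was -0.021 with TMM factors, 0.12 with median-of-ratios factors, 0.16 with the totals without those 100 loci, 0.21 with a pseudocount of 1 CPM, and 0.19 and 0.17 with minimums of 50 counts and 1 count. Loci at least 4-fold higher in replicate 1 and in replicate 2, 2049 and 656, were 1452 and 1062 with TMM factors, 1058 and 391 with a pseudocount of 1 CPM, and 4084 and 1323, 786 and 264, and 14219 and 5379 with minimums of 10 counts, 50 counts and 1 count. The middle minus the ends, -0.14, was -0.11 with a pseudocount of 1 CPM.

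The loci at 0 in replicate 2 and in replicate 1, 44 and 11, were 130 and 23 when the other library needed 20 counts, 15 and 3 when it needed 50, and 112 and 21 when 1 count was allowed in place of 0. With the CPM of 30 counts in the shallower library they were 15 and 11. Of the 44, 20 were present in every line, or 10 when presence needed 20 counts. Leaving out 1 line at a time gave 20 to 28 present in both others, and 9 to 11 of the 11 present in neither. In all, 38 of the alternative values stayed within the intervals or within 1.5 times the count, 29 moved beyond them and 1 changed sign. The cause of these changes was not tested beyond the fewer or further loci that a minimum admits.

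No paired analysis was possible because the comparison is between 2 libraries and comes from no test, and neither M82 replicate can be left out of it. Depth limits the loci at 0, since 30 counts in replicate 1 stand for a lower level than in replicate 2.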

Other observations

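A pair of loci on chromosome 10, picked after their values were seen, lay 583 bp apart and differed between the seedlings in opposite directions. Cluster_185393 (62598076 to 62598115) held 834 reads in M82 replicate 1 and 3080 in M82 replicate 2, while Cluster_185395 (62598699 to 62598737) held 45 reads in replicate 1 and 0 in replicate 2. Both were present in every line. Cluster_185393 held 4176 reads in IL1-1, 3192 in IL2-5 and 3420 in IL8-3, and Cluster_185395 held 23, 27 and 48 in the same order.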
